A study of Mus musculus with 8 samples.

Results

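Meg3, H19, Phlda2, Plagl1, Dlk1, Cdkn1c, Mest and Peg3 are 8 imprinted genes outside the IGF family that were measured in the embryonic mouse gonad. Every probe set annotated to 1 of these genes was taken, which gave 12 of the 12488 probe sets on the array, and all 12 passed the filter on low signal that left 8452 probe sets of the array for testing. Meg3 and Plagl1 had 2 probe sets each, Peg3 had 3, and the other genes had 1. The H19 probe set is also annotated to Mir675, a microRNA whose gene lies inside H19, so its signal cannot be assigned to one of them. The rule used gene names and no measured value, but the genes were proposed with earlier results of these data known.

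The study compared gonads of wild type (WT) and Wnt4 knock-out (KO) embryos of both sexes at embryonic days (E) 12.5 and 14.5, on 8 Affymetrix MG_U74Av2 arrays hybridised with biotin-labelled cRNA from total RNA. Each of the groups had 1 array: WT female, KO female, WT male and KO male gonads at E12.5, and the same 4 kinds of gonad at E14.5. Embryos were staged by their morphology, and the gonads were frozen until their genotype was known. The allele, the mouse strain and the number of embryos behind each array were not given in the sources used here. There was thus no replicate of any group, and every p-value below measures only the spread left over by the model across the 8 arrays, which may be technical.

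An imprinted gene is read mainly from 1 of its parental copies, because DNA methylation laid down in the egg or the sperm marks the copies differently. Many imprinted genes act on the growth of the fetus and placenta, with genes read from the father's copy often promoting growth and genes read from the mother's copy often restraining it. The gonad is the tissue in which germ cells erase these marks and later set them again according to sex, while its somatic cells keep them. The array measures the summed RNA of both copies and of all cells, so it does not report the parental origin of the RNA. In bulk tissue, fewer cells of a type and less RNA per cell cannot be told apart.

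Sequence upstream of the start sites is shown for 4 genes: Phlda2, which had the most negative KO difference of the members in females, and Plagl1, Mest and Peg3, which fell in E14.5 males. Each line gives the 250 bases before a start site in RefSeq's annotation of GRCm38.p6, 5′ to 3′ on the gene's strand, with each CpG, the dinucleotide on which imprinting marks are placed, in capitals.

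Phlda2: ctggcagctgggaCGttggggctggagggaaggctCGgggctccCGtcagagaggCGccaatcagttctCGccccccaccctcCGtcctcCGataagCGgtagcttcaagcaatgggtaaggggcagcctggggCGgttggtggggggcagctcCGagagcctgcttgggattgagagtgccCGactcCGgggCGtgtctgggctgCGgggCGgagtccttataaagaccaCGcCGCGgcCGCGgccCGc

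Plagl1: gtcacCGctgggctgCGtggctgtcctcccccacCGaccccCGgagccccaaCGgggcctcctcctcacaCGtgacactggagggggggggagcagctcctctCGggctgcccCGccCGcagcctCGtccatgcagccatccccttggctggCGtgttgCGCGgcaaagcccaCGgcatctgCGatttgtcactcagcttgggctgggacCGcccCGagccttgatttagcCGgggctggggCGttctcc

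Mest: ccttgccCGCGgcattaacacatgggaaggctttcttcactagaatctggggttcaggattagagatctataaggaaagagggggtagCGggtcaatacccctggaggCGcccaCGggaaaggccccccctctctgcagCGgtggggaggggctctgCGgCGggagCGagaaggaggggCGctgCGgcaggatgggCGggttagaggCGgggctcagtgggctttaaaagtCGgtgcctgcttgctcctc

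Peg3: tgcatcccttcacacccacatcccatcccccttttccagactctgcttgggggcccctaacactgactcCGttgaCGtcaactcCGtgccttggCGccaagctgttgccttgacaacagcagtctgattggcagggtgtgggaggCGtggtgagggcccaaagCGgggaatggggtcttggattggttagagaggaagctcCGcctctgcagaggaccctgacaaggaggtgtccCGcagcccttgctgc

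The Phlda2 window lay at chr7:143502525-143502774 on the minus strand and held 21 CpG, more than 83.5% of the 32536 windows of the same length. Plagl1's window, at chr10:13090582-13090831 on the plus strand, held 19 CpG, more than 80.1% of windows. For Mest, RefSeq gave 3 start sites, and the window of the second, at chr6:30737800-30738049 on the plus strand, held 14 CpG, more than 70.4% of windows. The Peg3 window, at chr7:6730420-6730669 on the minus strand, held 8 CpG, more than 56.7% of windows. Of the 8 genes, 6 matched the promoter table, with 9 windows in all. Plagl1 encodes a zinc finger transcription factor known to bind the palindrome GGGGCCCC. These letters, which read the same on both strands, stood in 288 of all windows (0.885%) and in 1 of the 9 members' windows, that of Peg3. The YY1 motif GCCATNTT, searched on both strands, stood in 3.93% of all windows and in 0 of the members' 9. Such a match describes the letters in the window and is not a measured binding site.

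Several of the genes lie close together in the genome. Phlda2 and Cdkn1c lie on chromosome 7 with 1 protein-coding gene, Slc22a18, between them, and H19 lies farther along the same cluster with 9 protein-coding genes between it and Cdkn1c. Dlk1 and Meg3 are neighbours on chromosome 12 with 0 protein-coding genes between them. Peg3 lies elsewhere on chromosome 7, Mest on chromosome 6 and Plagl1 on chromosome 10. Gene order was taken from RefSeq.

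Some arrays stood apart or went against their labels. Wnt4 signal (log2, after centring each array on the common median) was 10.19, 9.26, 9.45 and 9.42 on the WT arrays (female and male E12.5, female and male E14.5) and 8.59, 8.34, 8.32 and 9.19 on the matching KO arrays, so the array labelled KO male E14.5 lay 0.23 below its WT pair only. The array labelled WT female E14.5 had 7.63 for Y-linked Eif2s3y, within the male range of 6.91 to 8.12 and above the 4.86 to 6.04 of the other females, while its Xist signal was 7.10, against 4.79 or less in males. Over all probe sets the arrays of E14.5 males had r = 0.996 between them but 0.883 to 0.907 with the other 6 arrays, which had 0.979 to 0.997 among themselves. The gap between 3′ and 5′ probe sets of actin, a sign of RNA quality, was 0.48 to 0.77 in females and 0.96 to 1.37 in males. That of Gapdh was -0.02 (WT) and -0.09 (KO) in E14.5 males, 0.22 and 0.21 in E12.5 males and -0.003 to 0.30 in females. The summed log2 signal of 6 Leydig cell markers was 13.33 and 12.84 in the E14.5 males and 11.08 to 12.14 elsewhere, with 0 of the 6 below the floor throughout. That of 8 germ cell markers, of which only Tdgf1 never rose above the floor, was 11.48 and 11.43 in the E14.5 males and 11.98 to 12.45 elsewhere. Sertoli markers summed to 11.68 to 12.11 in males and 10.84 to 11.34 in females, the highest female value again being that labelled WT female E14.5. The Sertoli marker Fgf9 never rose above the floor. On each array, 5 to 7 of the 8 germ cell markers, 4 to 5 of the 6 Sertoli markers, 2 to 5 of the 5 pregranulosa markers and 2 to 6 of the 6 Leydig markers on the array were above the floor. Markers of red blood cells summed to 15.13 (WT) and 15.06 (KO) in E12.5 males and to 13.02 and 13.57 in E14.5 males, and to 14.48, 14.42, 13.86 and 13.47 in the females in the same order. Stroma and matrix markers summed to 12.78 and 12.92 in E12.5 females and to 13.54 and 13.77 in E14.5 females.

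Levels are given as centred log2 signal, where a step of 1 is a 2-fold change, and a floor of 6.99, the 40th percentile of all values, marks the level under which signal was not distinguished. Among the genes read from the mother's copy are the long noncoding RNAs Meg3 and H19. At the Meg3 probe set with the higher mean level, 160172_at, the signal in females was 10.95 (WT) and 11.10 (KO) at E12.5 and 10.02 (WT) and 10.81 (KO) at E14.5. In males it was 11.42 (WT) and 11.90 (KO) at E12.5 and 12.70 (WT) and 12.28 (KO) at E14.5. All 4 male arrays lay above all 4 female arrays, and the array labelled WT female E14.5 was the lowest. In the order of the 8 levels, 4 of the 7 gaps between neighbours exceeded the SD of a difference between 2 arrays (0.36): that above WT female E14.5 and the 3 gaps among the male arrays. The other Meg3 probe set, 160173_at, read 10.18, 10.30, 8.97 and 10.05 on the same female arrays and 10.60, 11.02, 10.73 and 10.26 on the male arrays. There the KO male E14.5 array fell among the females, and only the gap above WT female E14.5 exceeded the SD of 0.43.

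H19, a fetal RNA next to Igf2 whose host transcript yields Mir675, varied little. In females it was at 12.94 (WT) and 12.85 (KO) at E12.5 and at 13.01 (WT) and 12.91 (KO) at E14.5. In males it was at 13.32 (WT) and 13.33 (KO) at E12.5 and at 13.09 (WT) and 13.21 (KO) at E14.5. Every male array was above every female array, by as little as 0.084 between WT male and WT female at E14.5, close to the SD of a difference between 2 arrays (0.081).

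Phlda2, a small protein with a pleckstrin homology domain that restrains placental growth, was near the floor on most arrays. It was at 9.01 on the WT female E12.5 array and at 7.75 on that labelled WT female E14.5. The KO females were at 7.45 (E12.5) and 7.09 (E14.5), and the males at 7.39 (WT) and 6.997 (KO) at E12.5 and at 7.22 (WT) and 7.46 (KO) at E14.5. The 2 WT female arrays were thus the highest, and only the gap of 1.26 below WT female E12.5 exceeded the SD of 0.36.

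Cdkn1c encodes p57, an inhibitor of cyclin-dependent kinases that lets cells leave the cell cycle. Its female levels were 12.15 (WT) and 12.07 (KO) at E12.5 and 11.88 (WT) and 11.67 (KO) at E14.5. Its male levels were 11.99 (WT) and 12.26 (KO) at E12.5 and 10.91 (WT) and 11.25 (KO) at E14.5. The 4 arrays of E12.5 were above the 4 of E14.5, and the E14.5 males were lowest. Of the 7 gaps in this order, 6 exceeded the SD of 0.084, the exception being that between KO female and WT male at E12.5.

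**Figure D1:**
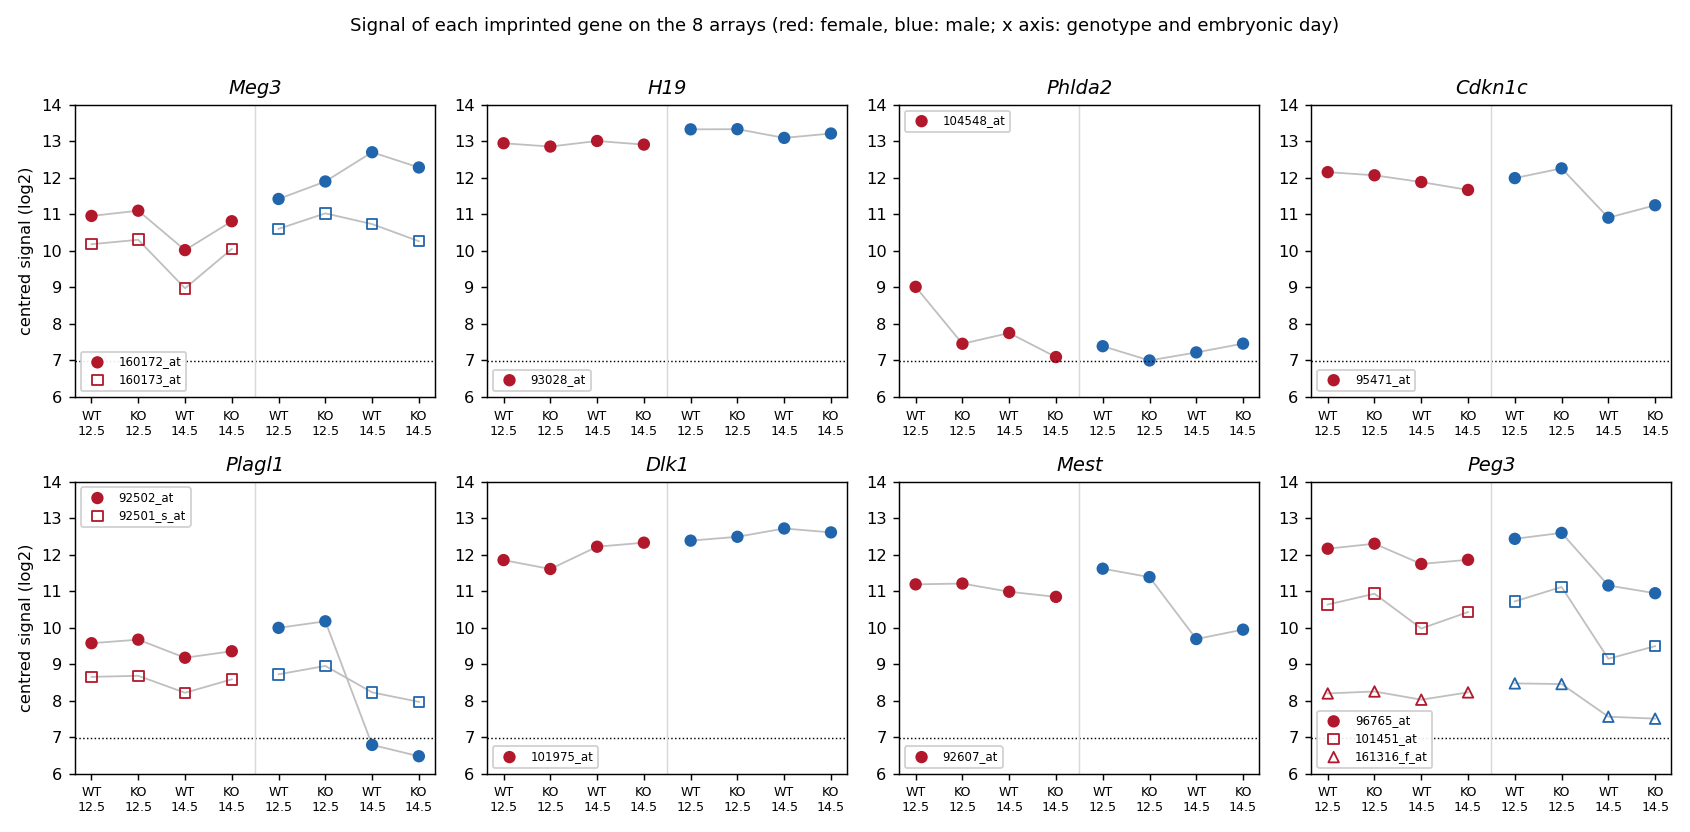
Centred log2 signal (y axis) of every probe set of the 8 genes on the 8 arrays (x axis: genotype and embryonic day; red, females; blue, males), with 1 array per point and a dotted line at the floor of 6.99. Plagl1, Mest, Peg3 and Cdkn1c were lowest in the E14.5 males at the probe set with the highest mean, Meg3 was highest there, and Phlda2 was highest in the WT female at E12.5.

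Plagl1, Dlk1, Mest and Peg3 are read from the father's copy. At Plagl1 probe set 92502_at the female levels were 9.57 (WT) and 9.67 (KO) at E12.5 and 9.18 (WT) and 9.35 (KO) at E14.5. The male levels were 9.99 (WT) and 10.17 (KO) at E12.5 but 6.79 (WT) and 6.48 (KO) at E14.5, under the floor. Set to the floor, both E14.5 males differed from the nearest other array, the WT female at E14.5, by -2.19, which is a bound on the gap. The second probe set, 92501_s_at, of a kind that can match several transcripts, read 8.65, 8.68, 8.22 and 8.58 in the females (WT and KO at E12.5, then WT and KO at E14.5). In the males it read 8.72 and 8.95 at E12.5 and 8.23 and 7.97 at E14.5. It put WT male E14.5 beside WT female E14.5, at 8.23 and 8.22, so the probe sets disagreed on the depth of the drop and on whether it set the WT male apart.

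Dlk1, a membrane protein of the Notch ligand family that keeps progenitor cells undifferentiated, was at 11.85 (WT) and 11.61 (KO) in females at E12.5 and at 12.22 (WT) and 12.33 (KO) at E14.5. In males it was at 12.38 (WT) and 12.49 (KO) at E12.5 and at 12.72 (WT) and 12.61 (KO) at E14.5. All male arrays lay above all female arrays. Only the gap of 0.37 between the female stages and that of 0.24 between the E12.5 females exceeded the SD of 0.15.

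Mest, a protein of the alpha/beta hydrolase fold first found in embryonic mesoderm, was at 11.19 (WT) and 11.21 (KO) in females at E12.5 and at 10.98 (WT) and 10.84 (KO) at E14.5. In males it was at 11.61 (WT) and 11.38 (KO) at E12.5 and at 9.69 (WT) and 9.95 (KO) at E14.5. The E12.5 males were the highest and the E14.5 males the lowest, with a gap of 0.90 between the latter and the nearest array, against an SD of 0.18.

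Peg3, a large zinc finger protein tied to growth and maternal behaviour, gave 12.16 (WT) and 12.30 (KO) in females at E12.5 and 11.74 (WT) and 11.86 (KO) at E14.5 at probe set 96765_at. In males it gave 12.43 (WT) and 12.59 (KO) at E12.5 and 11.15 (WT) and 10.94 (KO) at E14.5. The E14.5 males were again lowest, below the nearest array by 0.59 against an SD of 0.14. The 2 other probe sets, 101451_at and 161316_f_at, also had the E14.5 males lowest, at 9.15 and 9.49 and at 7.56 and 7.51 (WT and KO), against 9.98 to 11.11 and 8.03 to 8.47 on the other arrays.

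The change from E12.5 to E14.5 was fitted within each sex over both genotypes with limma, using the probe set with the highest mean for each gene and Benjamini-Hochberg adjustment over all 8452 probe sets, with a call at an adjusted p under 0.05. In males, Plagl1, Peg3, Mest, Cdkn1c and H19 fell and Meg3 rose, which was 6 of 8 genes called, against 77.8% of all probe sets. The members' share was thus near that of all genes. The median of the members was -0.61, against -0.00 over all probe sets. For Plagl1 both E14.5 levels were set to the floor, so its fitted difference of -3.10 (limma, adjusted p = 6.6e-05) is a bound on the size of the fall. The floor also left no difference between these arrays to enter its error. Its SE is therefore not given, and its adjusted p values here and below may be too low. The drop was at least 8.05-fold in WT and at least 9.11-fold in KO males. Probe set 92501_s_at gave a smaller fall of 0.74 on the log2 scale (limma, adjusted p = 0.0075).

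Mest fell by 1.68 ± 0.13 (SE, limma, adjusted p = 0.00024) in males, to 0.312 of its E12.5 level, and did so in WT (-1.93) and KO (-1.44). Peg3 fell by 1.46 ± 0.10 (adjusted p = 0.00018), to 0.362 of its E12.5 level, and its other probe sets fell by 1.60 and 0.93 (adjusted p = 7.4e-05 and 0.00024). The kinase inhibitor Cdkn1c fell by 1.05 ± 0.06 (adjusted p = 0.00011), with -1.08 in WT and -1.01 in KO. With 1 of the 8 arrays left out, these 4 genes kept their sign in males. Plagl1 ran from -3.19 to -3.01 (bounds), Mest from -1.93 to -1.44, Peg3 from -1.65 to -1.28 and Cdkn1c from -1.08 to -1.01. H19 fell by 0.18 ± 0.06 (adjusted p = 0.039) and Meg3 rose by 0.83 ± 0.26 (adjusted p = 0.033), but both calls were lost when any 1 array was left out. Leaving out a female array did not move any of these male values, but took away 1 of the 2 residual degrees of freedom. Leaving out an array moved Meg3 from 0.38 (without either WT male) to 1.28 (without either KO male), the deposited values put it at 0.05 (adjusted p = 0.86), and quantile normalization put H19 at -0.01 (adjusted p = 0.82). The other Meg3 probe set had the opposite sign in males, at -0.32 ± 0.30 (adjusted p = 0.38), so no stage change of Meg3 in males was shared by its probe sets. Dlk1 (0.23 ± 0.11, adjusted p = 0.11) and Phlda2 (0.15 ± 0.26, adjusted p = 0.63) were not called.

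In females, 4 of 8 genes were called, against 23.1% of all probe sets. Cdkn1c fell by 0.34 ± 0.06 (SE, limma, adjusted p = 0.024), Plagl1 by 0.36 ± 0.07 (adjusted p = 0.031) and Peg3 by 0.43 ± 0.10 (adjusted p = 0.042), while Dlk1 rose by 0.54 ± 0.11 (adjusted p = 0.029). The error of Plagl1 was pooled over all 8 arrays, the floored E14.5 males among them, so its SE and adjusted p may be too low. Of the other probe sets, Plagl1's gave -0.27 (adjusted p = 0.25), and those of Peg3 gave -0.58 (101451_at, adjusted p = 0.011) and -0.10 (161316_f_at, adjusted p = 0.35). The female arrays of both genotypes moved the same way for each of these 4 genes. A call in this fit favours such likeness, because a difference between the genotypes counts as its error. Meg3 (-0.61 ± 0.26, adjusted p = 0.15), Phlda2 (-0.81 ± 0.26, adjusted p = 0.082), Mest (-0.28 ± 0.13, adjusted p = 0.17) and H19 (0.06 ± 0.06, adjusted p = 0.52) were not called. For Meg3 and Phlda2 the drop was mostly that between the WT arrays, -0.94 and -1.26, against -0.29 and -0.36 in KO. Without any 1 array, and on the female arrays alone, 0 members were called, as were 0 of all 8452 probe sets. All 7 stroma and matrix markers had a positive female stage value, with a median of 1.17. In that comparison 5 of them were called higher, beside 23.1% of all probe sets called. The part of these markers in the female stage change was not tested. On the female arrays alone the estimates were the same, and the adjusted p of the 4 genes ran from 0.105 (Peg3) to 0.161 (Dlk1), from 1 residual degree of freedom in place of 2.

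The stage change differed between the sexes in 5 of 8 genes, against 69.0% of all probe sets, so that the members' share was not above the background. The male minus female difference of the stage change was -2.74 (limma, adjusted p = 0.00038), again with both E14.5 males at the floor, for Plagl1, -1.40 ± 0.18 (SE, adjusted p = 0.0022) for Mest, -1.04 ± 0.14 (adjusted p = 0.0026) for Peg3 and -0.71 ± 0.08 (adjusted p = 0.0017) for Cdkn1c. For Meg3 it was 1.44 ± 0.36 (adjusted p = 0.020), a call that was lost when any 1 array was left out, and at its other probe set 0.41 ± 0.43 (adjusted p = 0.43). The Plagl1 difference at 92501_s_at was -0.47 ± 0.21 (adjusted p = 0.10), so the call for Plagl1 and that for Meg3 rested on 1 of their 2 probe sets. Phlda2 (0.96 ± 0.36, adjusted p = 0.066), H19 (-0.23 ± 0.08, adjusted p = 0.052) and Dlk1 (-0.32 ± 0.15, adjusted p = 0.12) were not called. All of these male stage values rest on the E14.5 male arrays, which also had higher Leydig markers and lower germ cell markers than the other arrays. The actin gap was wider than in females in males of both stages, at 0.96 (WT) and 1.10 (KO) at E12.5 and 1.37 and 1.09 at E14.5. Of the 5 red blood cell markers, 4 had a negative male stage value and 1 a positive one, with a median of -1.20. In that comparison 3 of them were called lower and 0 higher, beside 77.8% of all probe sets called. The part of these markers and of the actin gap in the result was not tested.

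**Figure D2:**
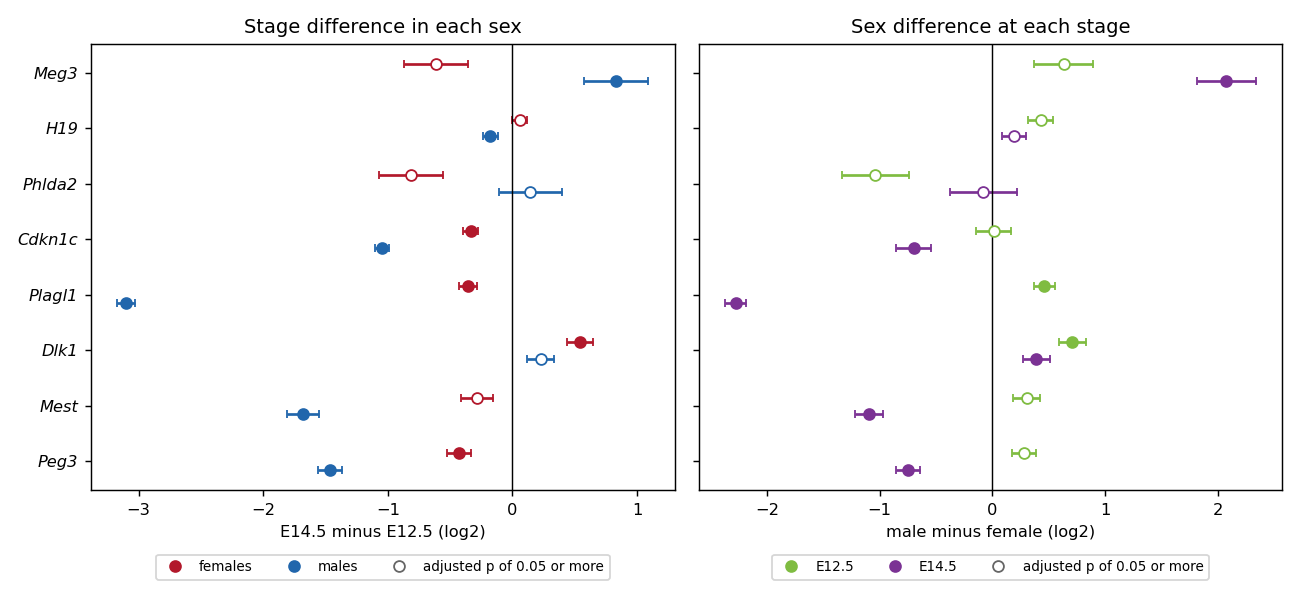
Fitted log2 differences with their SE (horizontal bars) for the 8 genes, at left E14.5 minus E12.5 in females (red) and males (blue) and at right male minus female at E12.5 (green) and E14.5 (purple), from 8 arrays with limma; open symbols have an adjusted p of 0.05 or more. For Plagl1 the E14.5 males were set to the floor, so its male and E14.5 points are bounds and their bars do not give their error. Its female and E12.5 bars share that pooled error and may be too short. Plagl1 lies farthest to the left in both panels, at -3.10 in males and -2.28 at E14.5, and Meg3 farthest to the right, at 0.83 in males and 2.08 at E14.5.

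Between the sexes, 2 of 8 genes were called at E12.5, against 9.81% of all probe sets, and both were higher in males. Dlk1 was higher by 0.71 ± 0.12 (SE, limma, adjusted p = 0.025), a 1.63-fold difference, with 0.53 in WT and 0.88 in KO. Plagl1 was higher by 0.46 ± 0.09 (adjusted p = 0.034), with 0.42 in WT and 0.50 in KO, and by 0.17 ± 0.16 (adjusted p = 0.54) at its other probe set. The error of the first value again took in the floored E14.5 males and may be too small. Of the 8 genes, 7 had a positive male minus female value and the median was 0.37, against 0.00 over all probe sets. H19 was 0.43 ± 0.11 higher (adjusted p = 0.058), Meg3 0.63 ± 0.26 higher (adjusted p = 0.17), and Phlda2 had a value of -1.04 ± 0.30 (adjusted p = 0.078), of which the WT pair gave -1.63 and the KO pair -0.46. Cdkn1c was the gene nearest to 0, at 0.01 ± 0.16 (adjusted p = 1). On the 4 arrays of E12.5 alone the estimates were the same, with adjusted p = 0.197 for Dlk1 and 0.180 for Plagl1 from 1 residual degree of freedom, and 0 members and 0 of all probe sets were called there or without any 1 array.

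At E14.5, 6 of 8 genes were called, against 74.7% of all probe sets. Meg3 was higher in males by 2.08 ± 0.26 (SE, limma, adjusted p = 0.00044), a 4.22-fold difference and the 4th highest of 8452. The WT pair gave 2.68 and the KO pair 1.47, and the other Meg3 probe set gave 0.99 ± 0.32 (adjusted p = 0.029), with 1.76 in WT and 0.21 in KO. Without the array labelled WT female E14.5 the Meg3 value was 1.47 (adjusted p = 0.036). The 2 probe sets thus had the same direction, and the WT pair was the wider at each. Dlk1 was 0.39 ± 0.12 higher in males (adjusted p = 0.023). That call was lost when any 1 array was left out, after quantile normalization (0.24, adjusted p = 0.14) and on the deposited values (0.0019, adjusted p = 1).

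Lower in E14.5 males were Plagl1 (-2.28 with the males at the floor, limma, adjusted p = 1.6e-05), Mest (-1.10 ± 0.12, SE, adjusted p = 0.00026), Peg3 (-0.75 ± 0.11, adjusted p = 0.00077) and Cdkn1c (-0.70 ± 0.16, adjusted p = 0.0061). With the male arrays under the floor, Plagl1 was lower by at least 4.56-fold in WT and by at least 5.16-fold in KO, whereas 92501_s_at gave -0.30 ± 0.16 (adjusted p = 0.12). With any 1 array left out, Plagl1 ran from -2.37 to -2.19 (bounds), Mest from -1.30 to -0.90 and Peg3 from -0.92 to -0.59. Leaving out an E12.5 array did not move these E14.5 values. Cdkn1c lost its call without any 1 of the 4 arrays of E14.5. Its value was -0.42 without the array labelled WT female E14.5 or WT male E14.5, and -0.98 without a KO array of E14.5. H19 (0.19 ± 0.11, adjusted p = 0.15) and Phlda2 (-0.08 ± 0.30, adjusted p = 0.82) were not called. Plagl1, Mest and Peg3 had positive male minus female values at E12.5 and negative ones at E14.5.

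Igf2, the neighbour of H19, was 0.35 ± 0.11 higher in E14.5 males (SE, limma, adjusted p = 0.024), where 74.7% of all probe sets were called. At E12.5 it had 0.25 ± 0.11 (adjusted p = 0.19). Centring had raised the E14.5 males by 0.43 (WT) and 0.47 (KO) and the E14.5 females by 0.09 and 0.04. These shifts differed between the sexes by about as much as Igf2 did. Both the size and the sign of its E14.5 difference thus depend on the scaling. The KO differences of Igf2 were 0.02 ± 0.06 in females (adjusted p = 0.97) and 0.01 ± 0.06 in males (adjusted p = 1).

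Wnt4 is a secreted signal that the ovary needs for its development. Against this knock-out, no member was called in any comparison of KO with WT in the main fits. With no floor, 1 member was called at E12.5, where 0.793% of all probe sets were. In females, 0 of 8 were called, where 0.00% of the 8452 probe sets passed and 962 had an unadjusted p under 0.05 with limma, among them the probe set of Phlda2 and 101451_at of Peg3. In males, 0 of 8 were called, with 0.00% of all probe sets passing. There 405 were under an unadjusted 0.05, among them the probe set of Cdkn1c and 101451_at of Peg3. For the difference of the KO effect between the sexes, 0 of 8 were called, with 0.00% passing. There 971 were under an unadjusted 0.05, among them the probe sets of Phlda2 and Cdkn1c. Over both sexes, 0 of 8 were called at E12.5, where 0.0828% of all probe sets passed and 312 had an unadjusted p under 0.05, and 0 of 8 at E14.5, where 0.00% passed and 353 did. Among the 312 were the probe set of Phlda2 and 101451_at of Peg3, and among the 353 was 101451_at.

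Phlda2 had the most negative KO value of the 8 genes in females. Its KO minus WT difference was -1.56 at E12.5 and -0.66 at E14.5, so that the KO arrays were 2.95-fold and 1.58-fold lower. The fit gave -1.11 ± 0.26 (SE, limma, adjusted p = 0.43), the 6th lowest of 8452 probe sets. In males the pairs gave -0.39 at E12.5 and 0.24 at E14.5, and the fit -0.07 ± 0.26 (adjusted p = 0.96). The female and male KO values differed by 1.03 ± 0.36 (adjusted p = 0.43), the 4th highest of all probe sets. Both female pairs exceeded the 95th percentile of absolute differences over all probe sets (0.27 at E12.5 and 0.36 at E14.5). The KO levels of 7.45 and 7.09 were near the floor of 6.99, which limits how low this probe set could read. The summed signal of 5 pregranulosa markers was 11.98 and 11.79 in WT and 10.86 and 11.05 in KO females (E12.5 and E14.5). Wnt4, the gene knocked out, was among them, so its own fall is part of this drop. Of the 5, 4 had a negative fitted KO value in females and 1 a positive one. The part of that cell type in the Phlda2 value was not tested.

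Meg3 differed by 0.14 at E12.5 and 0.79 at E14.5 in KO females and by 0.48 and -0.42 in KO males. Its second probe set gave 0.12, 1.08, 0.42 and -0.47 for the same pairs, so both read the same signs and E14.5 males went against the other pairs. The fits were 0.47 ± 0.26 in females (SE, limma, adjusted p = 0.49) and 0.03 ± 0.26 in males (adjusted p = 0.99), and without the array labelled WT female E14.5 the female value was 0.14.

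Cdkn1c had opposite signs in the sexes, with -0.09 and -0.22 in the female pairs and 0.27 and 0.34 in the male pairs (E12.5 and E14.5). The fits were -0.15 ± 0.06 in females (SE, limma, adjusted p = 0.44) and 0.30 ± 0.06 in males (adjusted p = 0.79), and their difference was 0.45 ± 0.08 (adjusted p = 0.43). The male pairs only just exceeded the 95th percentiles of all probe sets, 0.25 and 0.31. H19 had the same signs at smaller sizes (-0.09, -0.10, 0.01 and 0.12). This pattern of signs was common, at 13.9% of all probe sets.

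Peg3 gave a split picture. Probe set 101451_at was higher in all 4 KO arrays, by 0.30 and 0.45 in females and by 0.40 and 0.35 in males (E12.5 and E14.5). All 4 pairs were positive in 3.14% of all probe sets, and in 4 of them (0.0473%), this one included, every pair was at least as high as its lowest pair, a mark taken from its own values. Its fits were 0.37 ± 0.06 in each sex (SE, limma, adjusted p = 0.43 in females and 0.79 in males). The probe set with the highest mean, 96765_at, gave 0.14, 0.11, 0.16 and -0.21 for the same pairs, and 161316_f_at, of a kind shared among related sequences, gave 0.05, 0.20, -0.02 and -0.05. A KO difference at every stage and sex was therefore seen at 1 of the 3 Peg3 probe sets, and no fit called it.

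The other 3 genes had small KO values. Plagl1 gave 0.10 and 0.18 in females and 0.18 in males at E12.5, with both E14.5 males under the floor. Dlk1 gave -0.24, 0.11, 0.11 and -0.11 (female E12.5 and E14.5, male E12.5 and E14.5), and Mest 0.02, -0.14, -0.23 and 0.26. Neither Dlk1 nor Mest had 1 sign in both stages of a sex.

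**Figure D3:**
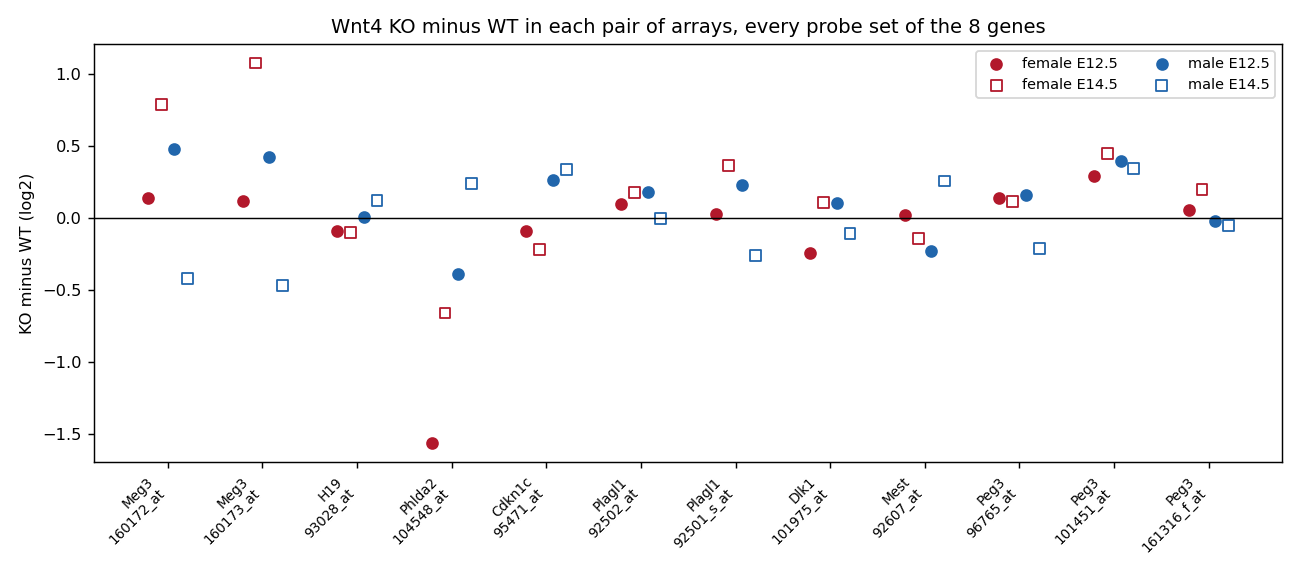
KO minus WT difference (log2, y axis) for each of the 12 probe sets (x axis) in the 4 pairs of arrays of the same sex and stage, with 1 pair per point (red, females; blue, males; filled, E12.5; open, E14.5). Phlda2 lies lowest, at -1.56 in E12.5 females, Meg3 is highest in E14.5 females at both probe sets, and Peg3 101451_at is the only probe set of the 12 with all 4 points above 0, from 0.30 to 0.45.

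The genes whose levels were most like each member's were taken from the 2209 probe sets that ranged by at least 1 over the 8 arrays, by Pearson's r over those arrays, as a description. All such r share the same 8 libraries and the contrast of the E14.5 males with the rest, so r over the other 6 arrays is given beside them. For Phlda2 they were Msx1 (r = 0.93 over 8 and 0.97 over 6 arrays), Fst (0.91 and 0.91) and Dusp9 (0.90 and 0.94). The other 6 arrays include WT female E12.5, which stood apart for Phlda2, so both r rest largely on that array. Fst was also under the floor at its lowest, at 6.51. Msx1 is a homeobox factor, and Fst encodes follistatin, a binder of activin that is a marker of the fetal ovary. For Plagl1 they were Armcx2, Arih1 and Mki67 (each 0.998 over 8 and 0.976 to 0.980 over 6 arrays), the last being a protein of dividing cells. Ctnna1, Psmd8 and Ndufa2 were most like Cdkn1c (0.99 each over 8 and 0.91 to 0.95 over 6 arrays).

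For Mest they were Qk, Sfxn1 and Fubp1 (0.99 each over 8 arrays, 0.94 to 0.98 over 6), and for Peg3 St6gal1, Hnrnph1 and Cdc6 (0.99 each, 0.97 to 0.98 over 6). Meg3 was followed most closely by Znrf1 (0.98 and 0.96), Med12 (0.97 and 0.94) and Hoxd9 (0.96 and 0.94). Dlk1 was followed by Col1a1, a chain of type I collagen (0.96 and 0.95), Larp7 (0.95 and 0.95) and Smoc2 (0.95 and 0.93). H19 was followed by Snw1 (0.93 and 0.95), Gstm2 (0.93 and 0.96) and Rpap3 (0.90 and 0.91). None of these 24 names is another of the 8 members. H19 ranged by 0.48 over the arrays, under the minimum of 1, and so could not be listed. With only 3 names per member from a large set of candidates, a member was unlikely to appear. The absence therefore does not show whether the members' levels were alike.

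A wider list of 69 other genes described as imprinted in mouse, some of them in certain tissues only, had 41 genes on the array and 28 that passed the filter. In males from E12.5 to E14.5, 9 of these rose and 9 fell, with a median of 0.00, beside 77.8% of all probe sets called. The adaptor Gab1 fell by 1.96 ± 0.08 (SE, limma, adjusted p = 7.4e-05) and the receptor Igf2r by 1.05 ± 0.06 (adjusted p = 0.00013), while Dhcr7, an enzyme of cholesterol synthesis, rose by 1.24 ± 0.15 (adjusted p = 0.0012) and Ins2 by 1.16 ± 0.10 (adjusted p = 0.00032). Every female value of Dhcr7 was under the floor, so its SE and adjusted p may be too low. In females 4 rose and 6 fell, with a median of -0.03, beside 23.1% of all probe sets called, and no probe set of the array kept a call there without any 1 array. Dcn, the matrix proteoglycan decorin, rose by 1.17 ± 0.07 (adjusted p = 0.0081), and the amino acid transporter Slc38a4 (-1.12), the adaptor Grb10 (-1.05) and Nnat (-1.01) fell (adjusted p = 0.011, 0.039 and 0.012). Of the 28 genes, the stage change differed between the sexes in 18, with 10 more positive in males and 8 more negative, beside 69.0% of all probe sets.

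Between the sexes at E12.5, 2 of the 28 were higher in males and 2 lower, with a median of 0.07 against 0.00 over all probe sets, of which 9.81% were called and 0 without any 1 array. Gnas, the stimulatory G protein subunit, was 0.57 ± 0.11 higher (SE, limma, adjusted p = 0.029), and Slc38a4 was lower (-0.56 ± 0.09, adjusted p = 0.025). Tspan32 was at least 0.40 higher (limma, adjusted p = 0.0099), a bound given without SE because both E12.5 females were set to the floor. Its adjusted p may be too low for the same reason. At E14.5, 12 were higher in males and 7 lower, with a median of 0.00, beside 74.7% of all probe sets called. They included Ins2 (1.45), Dhcr7 (1.30, a bound with both E14.5 females set to the floor) and Grb10 (1.10) among the higher and Gab1 (-1.50) among the lower. In the comparisons of KO with WT, 0 of the 28 were called with limma, beside 0.00% to 0.0828% of all probe sets. The nearest was Th, tyrosine hydroxylase, which was higher in KO at E12.5 by 0.58 ± 0.07 (adjusted p = 0.070), at 7.74 against 7.13 in females and 7.92 against 7.37 in males.

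**Figure D4:**
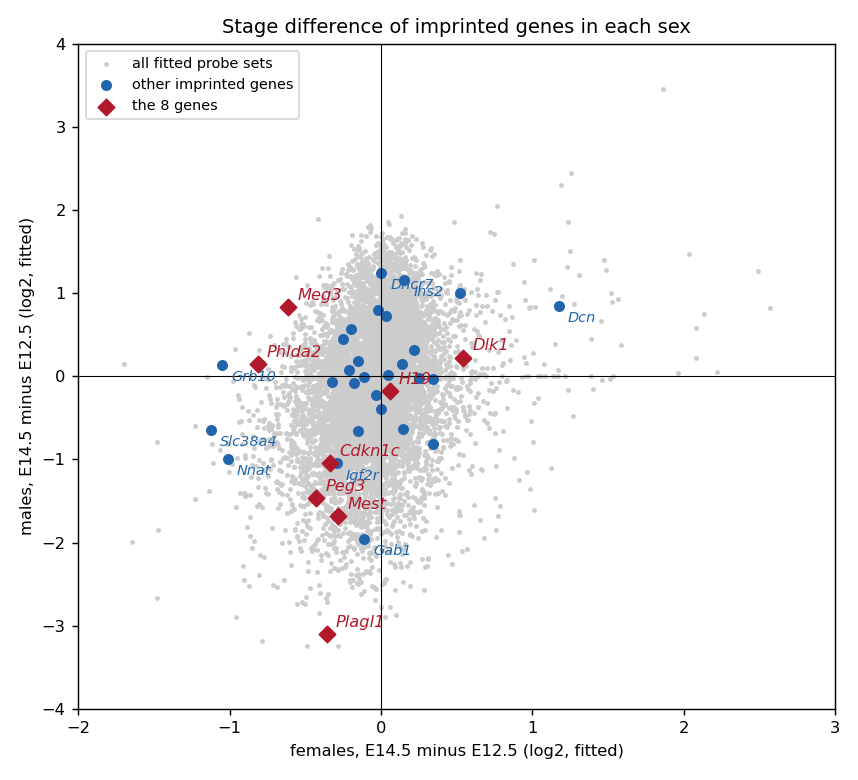
Fitted stage difference (E14.5 minus E12.5, log2) in females (x axis) against males (y axis) for the 8 genes (red diamonds), 28 other imprinted genes (blue circles) and all 8452 fitted probe sets (grey), from 8 arrays with limma. Plagl1, whose E14.5 males were set to the floor, lies near the lower edge of all probe sets, at -0.36 in females and -3.10 in males, and Meg3 and Phlda2 lie in the upper left, negative in females and positive in males.

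Of 17 genes known for laying down, keeping or reading imprints, 10 were on the array and 9 passed the filter. In males 2 rose and 6 fell from E12.5 to E14.5, and in females 1 rose and 5 fell, with medians of -0.43 and -0.27 against -0.00 and -0.02 over all probe sets, of which 77.8% and 23.1% were called. Eed, a subunit of the Polycomb complex that methylates histone H3, fell by 1.36 ± 0.10 (SE, limma, adjusted p = 0.00025) in males, and Ctcf, the insulator protein that binds between H19 and Igf2, fell by 1.02 ± 0.07 (adjusted p = 0.00017). Between the sexes at E14.5, 2 of the 9 were higher in males and 4 lower (median -0.18), beside 74.7% of all probe sets. The de novo DNA methyltransferase Dnmt3a was 1.22 ± 0.10 higher in E14.5 males than in E14.5 females (adjusted p = 7.5e-05), at 8.94 (WT) and 8.65 (KO) in males and 7.84 (WT) and 7.32 (KO) in females. Dppa3, a germ cell protein that guards methylation in the egg, was lower in E14.5 males (-0.99 ± 0.11, adjusted p = 0.00027), as was Uhrf1 (-0.76 ± 0.10, adjusted p = 0.00061). Between the sexes at E12.5, 0 of the 9 were called, beside 9.81% of all probe sets. For KO against WT, 0 of the 9 were called in each comparison with limma, beside 0.00% to 0.0828% of all probe sets. The KO value nearest to a call in females was that of Dnmt3a, at -0.38 ± 0.10 (adjusted p = 0.43).

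The split of calls into higher and lower depended on how arrays were scaled. Of all called probe sets, 36.5% were higher at E14.5 in females, 48.8% in males, 51.0% more positive in males by stage, 54.3% higher in males at E12.5 and 51.2% at E14.5. Without centring, the deposited values put these shares at 5.24%, 11.1%, 18.1%, 87.7% and 26.8%, and quantile normalization put the female stage share at 49.0%. The medians of all probe sets then stood at -0.27, -0.69, -0.41, 0.12 and -0.27 as deposited, and every difference above is relative to a common median. On the deposited scale the stage value of Dlk1 in males turned to -0.55 (limma, adjusted p = 0.0034) and that of H19 in females to -0.19 (adjusted p = 0.022), both past the threshold. There the stage value of Phlda2 in males and the E14.5 sex value of H19 also turned, whereas Plagl1, Mest, Peg3 and Cdkn1c stayed lower in E14.5 males.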

How the data were processed

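Gonad RNA was measured on 8 arrays. The deposited values were log2 signals per probe set, which the authors made with MAS5 per the submitters' processing notes; its version and scaling were not given in the sources used here. In the KO male E12.5 column, 14 deposited cells were spreadsheet dates, so this column was listed as a score, and these cells were set to missing. Arrays were centred on a common median (deposited medians 7.04 to 7.85), values under the 40th percentile (6.99) were set to it, and the 8452 probe sets above this floor on at least 2 arrays were kept, without 66 controls. On each array 59.8% to 60.5% of values were above the floor, and the number of arrays limits the precision.

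Differences were fitted in R 4.3.3 with limma 3.58.1 (variance trend, two-sided, Benjamini-Hochberg over kept probe sets, 0.05), with sex × genotype plus sex × stage for the KO and stage comparisons within a sex, and stage × genotype plus stage × sex for sex and KO within a stage. Either fit has 2 residual degrees of freedom, where the genotype effect changes with stage or the sex effect with genotype, so a real effect of that kind counts as error. Moderation added 2.77 and 4.38. The scripts were tested on simulated data.

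A gene was represented by its probe set with the highest mean. Named were all members, Wnt4, up to 4 genes per list and comparison with the largest absolute difference, and the 3 genes most like each member. Members and lists were chosen with earlier results of these data known. Alternatives were other scalings, floors, filters, probe sets and arrays left out. Promoter windows and gene order came from RefSeq, and gene names from the platform annotation.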

Additional observations from a re-analysis of the deposited data

Results flagged for a closer look

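The change from E12.5 to E14.5 differed between the sexes, by limma's test of that difference, in 5 of the 8 genes, beside 69.0% of all probe sets. The male minus female difference of the stage change was -2.74 for Plagl1 (a bound, with both E14.5 males at the floor), -1.40 for Mest, -1.04 for Peg3, -0.71 for Cdkn1c and 1.44 for Meg3 (log2). The E14.5 male arrays also stood apart from the other 6 over all probe sets, and sex, stage and array cannot be told apart there.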

How the results depend on the processing

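No paired analysis was possible because each group had 1 array and the labels give no replicate numbers. The number of members called for the stage change in females was 4 (23.1% of all probe sets), 7 on the values as deposited (61.7%), 2 after quantile normalization (20.5%), 0 without the filter on low signal (0.322%), 0 on the female arrays alone (0%) and 0 to 0 when 1 array was left out (0%). For the sex difference at E12.5 it was 2 (9.81%), against 6 as deposited (26.8%), 4 with the floor at the 20th percentile (14.1%), 5 with no floor (19.8%), 0 without the filter (0.113%), 0 on the E12.5 arrays alone (0%), 1 with the second probe sets of Meg3, Plagl1 and Peg3, and 0 to 0 when 1 array was left out (0%). For the stage change by sex it was 5, against 3 with the second probe sets, and for KO at E12.5 it was 0 (0.0828%), against 1 with no floor (0.793%). The signs that turned as deposited were those of H19 for stage in females (-0.19) and sex at E14.5 (-0.19) and of Phlda2 (-0.54) and Dlk1 (-0.55) for stage in males. After quantile normalization those of Cdkn1c for sex at E12.5 (-0.17), H19 for sex at E14.5 (-0.0058) and Meg3 for KO in males (-0.014) turned. Other probe sets turned Meg3 for KO (-0.022) and stage (-0.32) in males and Peg3 for KO in males (0.37). All 8 genes for stage and sex, and Meg3, Phlda2, Cdkn1c and Peg3 for KO in and between the sexes, were followed through every alternative. With 1 array left out, the values among these that changed sign ran from -0.16 to 0.19 for Cdkn1c and sex at E12.5, from -0.42 to 0.48 for Meg3 and -0.21 to 0.16 for Peg3 and -0.39 to 0.24 for Phlda2 and KO in males, from -0.88 to 0.012 for Meg3 and -0.34 to 0.037 for Peg3 and KO by sex, and for Phlda2 from -0.53 to 0.37 for sex at E14.5 and -0.17 to 0.46 for stage in males. The KO values of Dlk1 and Mest in each sex, and several KO values within a stage, also changed sign. Apart from the arrays left out, 317 of the followed genes' alternative values kept direction and call, 36 lost and 18 gained a call, and 10 turned; leaving out an array kept 314, lost 84, gained 2 and turned 16, with 1 residual degree of freedom fewer. The causes were not tested. The values near the floor, those of Phlda2 and of Plagl1 in E14.5 males, had the least signal to measure a difference with.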
